A study of Caenorhabditis elegans with 2 samples.

Results

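The aminoacyl-tRNA synthetase genes of the nematode Caenorhabditis elegans were chosen by name from the protein-coding genes of the Ensembl annotation, as those called 1 letter followed by ars-1, ars-2 or ars-3. The rule found 32 of 19973 genes: 20 names ending in -1, 11 ending in -2 and 1 ending in -3. Binding of HIF-1, the hypoxia-inducible factor, had been mapped by ChIP-seq, in which DNA fragments bound by a protein are recovered with an antibody and sequenced. The 2 samples were biological replicates of 1 group, whole L4 larvae of mixed sex of strain OR3349, whose HIF-1 carries GFP and FLAG at its C-terminus and was precipitated through the GFP. The larvae were collected 52 h after a start from starved L1 larvae hatched from bleached animals. None of the sources used here gives the oxygen level, no other genotype or condition was analysed, and in whole animals binding in different cell types cannot be told apart.

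Aminoacyl-tRNA synthetases join each amino acid to its transfer RNA, the step that fixes which amino acid a codon means. Animal cells need charged tRNAs in the cytosol and in mitochondria, and for many amino acids separate nuclear genes encode the enzymes of each compartment. In C. elegans the name ending -1 usually denotes the cytosolic enzyme and -2 the mitochondrial one, while fars-1 and fars-3 encode subunits of the cytosolic phenylalanyl enzyme. HIF-1 is a transcription factor whose protein is degraded when oxygen is plentiful, and it binds the hypoxia response element, whose core is ACGTG or GCGTG.

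HIF-1 peaks lay in the promoter windows of 9 synthetase genes, and weaker candidate regions at most of the others. The peaks are those of the authors' list that passed the irreproducible discovery rate procedure (IDR), which scores how well the ranks of regions hold up between replicates. A peak counted for a gene where its summit fell in a promoter window, here the 1000 bp before any transcript start of the gene and the 200 bp after it. The 9 genes were ears-2, cars-1, yars-2, mars-1, kars-1, nars-1, aars-2, rars-1 and aars-1. They made up 28.1% of the 32, with an exact Clopper-Pearson 95% interval of 13.7% to 46.7%, against 12.2% of all protein-coding genes (2427 of 19973). The intervals here cover counting error over genes only, and no test of the list was made.

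The sequences at peak summits of genes on chromosomes II and IV show the DNA under these peaks, and 2 candidate regions are set beside them because they hold the HIF-1 core that the peaks shown lack. Each is read 5′ to 3′ on the strand of the gene from the WBcel235 assembly (ce11), and capitals mark the E-box CACGTG or a hypoxia response element core. The kars-1 and mars-1 peaks are shown over 101 bases centred on the summit, at II:7072686-7072786 and IV:11635728-11635828, and the ears-2 peak over the 56 bases at IV:390469-390524 that lie outside exons. The candidates of hars-1 and mars-1 lie at IV:10858759-10858859 and IV:11636435-11636535. The hars-1 gene is on the plus strand and the others on the minus strand.
ears-2 peak: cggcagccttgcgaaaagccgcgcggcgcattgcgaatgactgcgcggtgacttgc
mars-1 peak: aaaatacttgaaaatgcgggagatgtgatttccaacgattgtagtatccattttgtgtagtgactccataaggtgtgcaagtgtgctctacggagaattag
kars-1 peak: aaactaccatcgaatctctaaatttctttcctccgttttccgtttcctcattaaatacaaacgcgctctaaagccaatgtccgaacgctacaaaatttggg
hars-1 candidate: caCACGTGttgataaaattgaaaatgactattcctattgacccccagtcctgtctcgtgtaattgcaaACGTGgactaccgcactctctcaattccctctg
mars-1 candidate: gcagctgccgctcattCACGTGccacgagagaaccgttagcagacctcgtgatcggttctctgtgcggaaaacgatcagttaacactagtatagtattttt

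The strongest synthetase peak belonged to ears-2, which RefSeq names the mitochondrial glutamyl-tRNA synthetase. Its region, IV:390340-390629, had a pooled signal of 443, a value of 166 in replicate 1 and 276 in replicate 2, and ranked 267 of the 3531 IDR peaks. The signal is the authors' enrichment value, and each list has its own scale, so values of the pooled and replicate lists are given side by side and not compared. The summit lay 6 bp upstream of the ears-2 start and 86 bp upstream of the divergent gene uncp-18, so the peak cannot be assigned to 1 of the genes. The other strong -2 name was yars-2, a tyrosyl-tRNA synthetase gene, whose region IV:4712525-4712739 had a pooled signal of 253, with 88.9 in replicate 1 and 164 in replicate 2. Its summit lay 20 bp upstream of the start and in no other gene's window. In both replicates the ears-2 region ranked higher, at 277 and 278 of 30000 candidate regions, than the yars-2 region, at 1044 and 791.

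Among the -1 names, mars-1, which encodes the cytoplasmic methionyl-tRNA synthetase, had a peak at IV:11635682-11635898 with a pooled signal of 238, a value of 105 in replicate 1 and 125 in replicate 2. Its summit lay 291 bp upstream of mars-1 and 870 bp upstream of the divergent gene F58B3.6. The lysyl-tRNA synthetase gene kars-1 had a peak at II:7072660-7072850 with a pooled signal of 230, with 78.1 in replicate 1 and 149 in replicate 2, and its summit was 321 bp before the start. Lysine has only a -1 name here, and in humans 1 gene supplies the lysyl enzyme of both compartments. These pooled signals were close to each other, at ranks 916 and 987 of the IDR list.

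The cysteinyl gene cars-1, whose enzyme RefSeq calls cytoplasmic, had the second strongest peak of the 32 genes. Its region, I:2628561-2628935, had a pooled signal of 317, with 125 in replicate 1 and 195 in replicate 2, and ranked 546 of the IDR list. The summit lay 147 bp upstream of the start, in the window of cars-1 alone. Of the 9 peaks, it was the one with a hypoxia response element core within 50 bp of the summit, centred 1 bp away.

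The other 4 peaks were weaker, with pooled signals below the median of 181 over all genes with a promoter peak. The asparaginyl gene nars-1 had 180 at I:7090136-7090551, with 49.0 in replicate 1, and no replicate 2 region had its summit within 100 bp. An adjoining pooled candidate at nars-1, 485 bp upstream of the start, matched a replicate 2 region of 131, so replicate 2 did hold signal nearby. That candidate summit was nearer to the divergent gene nduf-6, 193 bp upstream of its start. The alanyl gene aars-2 had 129 at I:3982783-3983198, with 49.2 in replicate 1 and 79.5 in replicate 2. The arginyl gene rars-1 had 123 at III:4917947-4918362, with 39.1 in replicate 1 and 77.0 in replicate 2. That summit lay 978 bp upstream of rars-1 but 147 bp upstream of rpb-8, an RNA polymerase subunit gene on the same strand, to which it was nearer. The weakest peak was that of aars-1, the second alanyl gene, with 111 at II:11464540-11464735, a value of 24.1 in replicate 1 and 84.6 in replicate 2. Its ranks in the replicate lists were far apart, at 10001 in replicate 1 and 2213 in replicate 2.

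**Figure D1:**
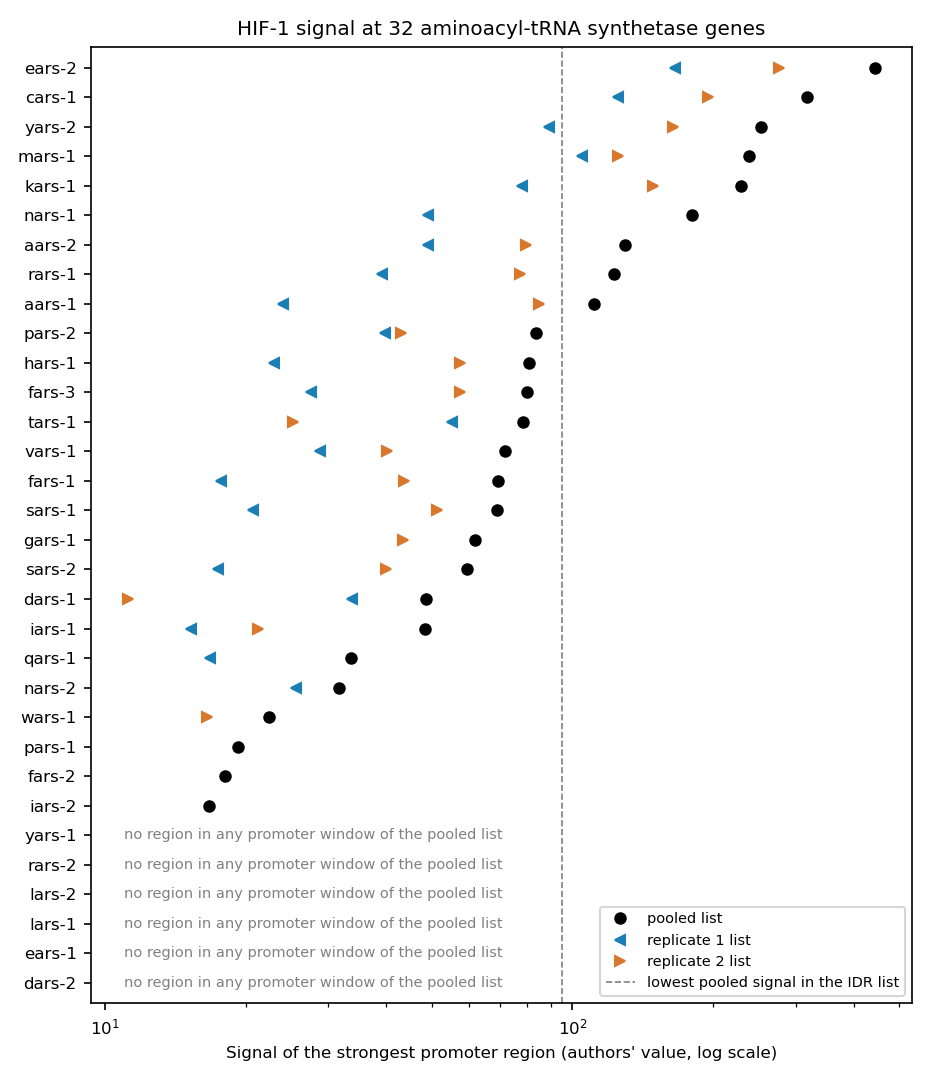
Signal of the strongest promoter region of each of the 32 synthetase genes (rows) on a log axis, from the authors' pooled list (black circles), replicate 1 (blue triangles) and replicate 2 (orange triangles), with a dashed line at 95.1, the lowest pooled signal in the IDR list. Of the genes, 9 lie right of the line, 17 left of it and 6 have no pooled region, and a missing triangle means that the replicate held no summit within 100 bp.

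Over the 9 genes the pooled signal ran from 111 to 443 with a median of 230, against a median of 181 over all genes with a promoter peak. Set among those genes, ears-2 stood above 90.2% of them and aars-1 above 13.8%, so the synthetase peaks spread over most of the range. All 9 summits lay between genes, as did 76.5% of the summits of the 2010 IDR peaks in promoter windows. Their median position was 192 bp upstream of the start, against 210 bp upstream over all promoter peaks. The GC content within 50 bp of the summit had a median of 44.6% (32.7% to 63.4%), against 47.5% over all promoter peaks. None of the 9 was within 250 bp of a tRNA gene, the nearest being 67771 bp away, against 38 (1.89%) of all promoter peaks.

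Both replicate lists, of 30000 regions each, held a region near most of the 9 peaks. A candidate summit within 100 bp was found for 9 of the 9 peaks in replicate 1 and for 8 in replicate 2, and 1942 of all 2010 promoter peaks (96.6%) were found in both. The exception was nars-1, described above. The IDR list was derived from both replicates, so this is a description and not independent evidence.

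A shared promoter limited how many peaks could be assigned to a synthetase. Of the 9 peaks, 5 also lay in the window of another gene, against 585 (29.1%) of all promoter peaks. In 4 of these, ears-2, mars-1, nars-1 and aars-1, the other gene ran divergently: uncp-18, F58B3.6, nduf-6 and rga-1. The fifth was rars-1, whose peak was nearer to rpb-8. Counting only peaks in no other gene's window left 4 synthetase genes, cars-1, yars-2, kars-1 and aars-2. This is 12.5% of the 32 (exact interval 3.51% to 29.0%), against 6.50% of all genes counted in the same way. The interval holds 6.50%, so a higher share was not shown for peaks in no other gene's window.

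**Figure D2:**
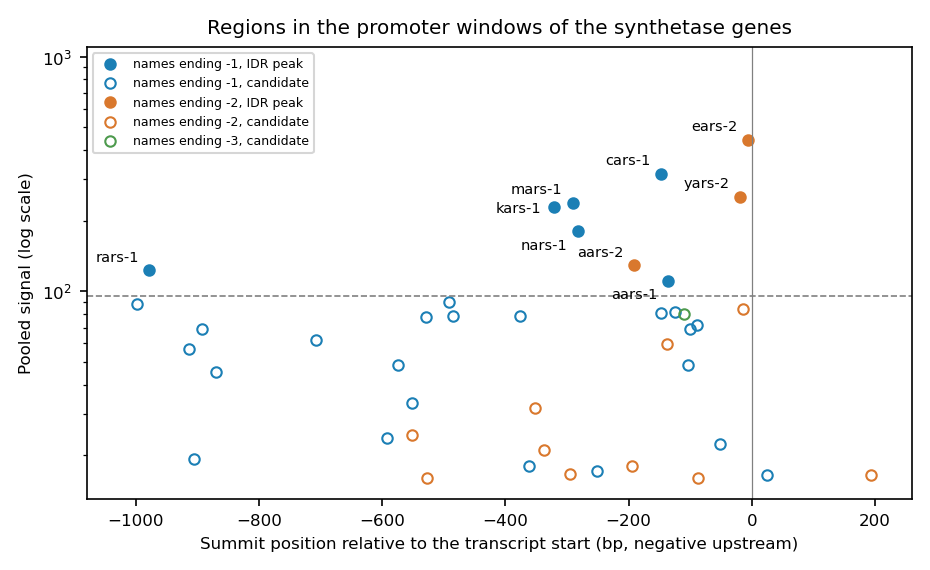
Pooled signal on a log axis against the distance of each summit from the transcript start in bp, for the 9 IDR peaks (filled) and 33 weaker candidate regions (open) of the synthetase genes, coloured by the ending of the name. The dashed line marks the lowest IDR signal, 95.1, and 8 of the 9 peaks lie within 321 bp upstream of a start, with rars-1 the exception at 978 bp.

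Below the IDR list, the authors' pooled candidate list holds 30000 regions, peaks and background together. A pooled candidate region or peak lay in the promoter window of 26 of the 32 genes (81.2%, 95% interval 63.6% to 92.8%), against 36.4% of all genes. Regions also found in both replicates were present at 18 of 32 (56.2%, 37.7% to 73.6%), against 22.9% of all genes. The replicate lists alone gave 25 of 32 (78.1%) in replicate 1 and 24 of 32 (75%) in replicate 2, against 39.8% and 38.2% of all genes.

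The same held for the genes without an IDR promoter peak. Of those 23 synthetase genes, 17 had a candidate region (73.9%, 51.6% to 89.8%), against 27.6% of the 17546 genes of this kind. In 10 of 23 the region was found in both replicates (43.5%, 23.2% to 65.5%), against 12.4%. The strongest candidate of the 17 had a median signal of 59.5 (16.7 to 83.7), against a median of 38.0 over all other genes with a candidate only.

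The strongest candidates came close to the IDR threshold. The prolyl gene pars-2, named mitochondrial by RefSeq, had a signal of 83.7, with 39.7 in replicate 1 and 42.9 in replicate 2, at a distance of 14 bp from the start. The histidyl gene hars-1 had 80.5, with 23.0 in replicate 1 and 57.5 in replicate 2, and its summit also lay in the window of the divergent gene T11G6.2. The beta subunit gene of the phenylalanyl enzyme, fars-3, had 79.9, with 27.6 and 57.4 in replicates 1 and 2, against 69.4 (17.7 and 43.6) at the partner fars-1. The fars-1 summit was 892 bp upstream, and nearer to rbm-5, 150 bp from that start. The threonyl gene tars-1 had 78.3, with 55.3 in replicate 1 (rank 2389) and 25.2 in replicate 2 (rank 10364), and its summit lay nearer to the divergent gene kel-1, 159 bp upstream of it, than to tars-1, 376 bp away. The valyl gene vars-1 had 71.7, with 28.9 and 40.0, and its summit was 89 bp before the start. All 6 of these regions were found in both replicates. In replicate 1 the fars-1 region ranked 17493 and the hars-1 region 10868 of 30000, and the others ranked higher.

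The remaining candidates were weaker or found in fewer replicates. The seryl genes sars-1 and sars-2 had 68.9 and 59.5, the aspartyl gene dars-1 48.6 and the isoleucyl gene iars-1 48.3, all found in both replicates. The dars-1 region had 33.7 in replicate 1, at rank 5437, and 11.2 in replicate 2, at rank 26809 of 30000. In replicate 1 the regions of iars-1, sars-2 and sars-1 ranked 22007, 17972 and 13266. In replicate 2 they ranked 12995, 5780 and 4268. The strongest regions of gars-1 (glycyl, 61.8) and wars-1 (tryptophanyl, 22.4) were matched in replicate 2 alone. An adjoining gars-1 candidate of 56.6, 914 bp upstream of the start, was matched in replicate 1 alone, at 45.8 (rank 3235). Those of qars-1 (glutaminyl, 33.6) and nars-2 (asparaginyl, 31.7) were matched in replicate 1 alone. Those of pars-1 (prolyl, 19.3), fars-2 (phenylalanyl, 18.0) and iars-2 (isoleucyl, 16.7) were matched in neither, and lay near the bottom of the pooled list, which ended at 15.6. Of the strongest candidates of these 17 genes, 9 also lay in another gene's window, and 6 were nearer to that gene's start: those of tars-1, fars-1, dars-1, iars-1, qars-1 and iars-2. Not all of these summits lay between genes. Those of fars-2, gars-1, nars-2 and tars-1 lay in introns, inside the synthetase gene and upstream of an internal start. The iars-2 summit lay in a coding exon and the fars-1 summit in an untranslated region.

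No region of the pooled list lay in the window of 6 genes: dars-2 (aspartyl), ears-1 (glutamyl), lars-1 and lars-2 (leucyl), rars-2 (arginyl) and yars-1 (tyrosyl). The leucyl genes had regions in replicate 1 alone, of 26.1 at lars-1 and 21.3 at lars-2. The other 4 had none in any of the lists. A gene with no listed region may still be bound below what these lists hold.

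The names ending in -1 and in -2 were then compared. IDR promoter peaks were present at 6 of 20 -1 names (30.0%, 11.9% to 54.3%) and at 3 of 11 -2 names (27.3%, 6.02% to 61.0%). The difference of 2.73 percentage points had a 95% interval (Newcombe) of -30.4 to 30.8 points, so neither a much higher nor a much lower share at the -1 names could be told apart from none. Candidate regions or peaks lay at 17 of 20 -1 names (85%) and 8 of 11 -2 names (72.7%), and at fars-3. Those found in both replicates lay at 12 of 20 (60%) and 5 of 11 (45.5%).

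The ending of the name is not the compartment in every case. RefSeq names 10 of the 32 products cytoplasmic, 4 mitochondrial and gives no compartment for 18. For alanine the usage is the reverse, with aars-1 called mitochondrial and aars-2 cytoplasmic. Both alanyl genes had a peak, so exchanging them left 6 of 20 and 3 of 11.

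Within amino acids, 11 had both a -1 and a -2 name. Alanine was the 1 amino acid with a peak at both. In 2 the peak was at the -1 name only, nars-1 and rars-1, and in 2 at the -2 name only, ears-2 and yars-2. In 6 neither gene had one. The stronger region was at the -1 name in 6 amino acids and at the -2 name in 4. Among these 4, glutamate and tyrosine had no pooled region at ears-1 and yars-1, beside signals of 443 at ears-2 and 253 at yars-2. Of the 9 -1 names with no -2 name, 3 had a peak, cars-1, kars-1 and mars-1.

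The synthetases fall into a pair of unrelated structural classes by the fold of their catalytic domain. Peaks lay at 5 of 15 class I genes (33.3%, 11.8% to 61.6%) and 4 of 17 class II genes (23.5%, 6.81% to 49.9%), against 12.2% of all genes. Candidate regions or peaks lay at 10 of 15 (66.7%, 38.4% to 88.2%) and 16 of 17 (94.1%, 71.3% to 99.9%), against 36.4%. The intervals of the classes overlap in both counts. This grouping was added after the values were seen and received no test.

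The names do not cover every synthetase gene. By RefSeq product, glp-4 encodes a valyl-tRNA synthetase and had an IDR peak with a pooled signal of 167, located 496 bp before the start, with 118 in replicate 2 and no replicate 1 summit within 100 bp. The gene K03B4.1, with a seryl-tRNA synthetase product, had a candidate of 50.4, with 27.3 and 26.6 in replicates 1 and 2. The gene prx-10, listed with a mitochondrial tryptophanyl product, had no region. K03B4.1 and prx-10 were found after the data had been seen, and none of these genes entered the counts above.

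The core of the hypoxia response element, ACGTG or GCGTG, was looked for on both strands in the 50 bp to each side of a summit. It was present at 1 of the 9 synthetase peaks (11.1%, 0.281% to 48.2%), cars-1, against 853 of all 2010 promoter peaks (42.4%). The interval of the synthetase share includes 42.4%, so a lower share was not shown at this number of peaks. Promoter peaks with signals in the range of the 9 had it at 616 of 1522 (40.5%). In equally wide flanks with their centre 500 bp to the left and to the right, it was present at 4 and 2 of the 9 synthetase peaks, against 15.7% and 14.6% of all promoter peaks.

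**Figure D3:**
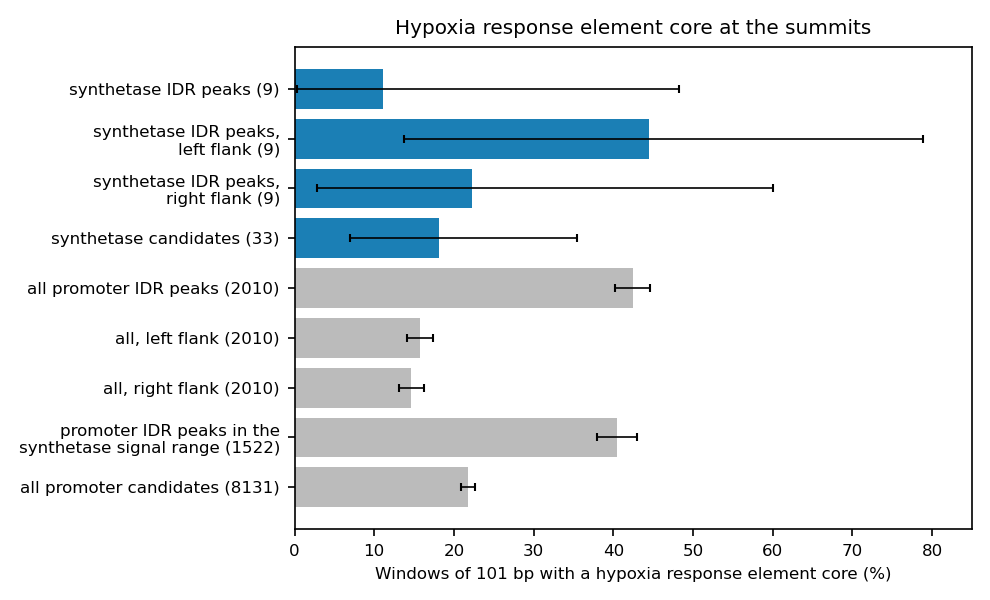
Share of 101 bp windows with a hypoxia response element core (x axis, percent), for the synthetase peaks and candidates (blue) and for all promoter regions (grey), with the number of windows in parentheses and exact 95% intervals as lines. The interval of the 9 synthetase peaks runs from 0.281% to 48.2% and spans the 42.4% of all promoter peaks.

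The nearest core to the summit was 53 bp away at ears-2 and 75 bp at aars-1, just outside the search window. It was 192 bp away at rars-1, 194 bp at yars-2, 428 bp at nars-1, 478 bp at aars-2 and 493 bp at mars-1. No core lay within 500 bp of the kars-1 summit. Among the 33 synthetase candidate regions, 6 held the core (18.2%, 6.98% to 35.5%), against 1770 of 8131 promoter candidates (21.8%). These were regions of cars-1, gars-1, hars-1, mars-1, nars-2 and qars-1.

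The E-box CACGTG, which contains the core, was present at 0 of 9 synthetase peaks, where the exact interval reaches 33.6%, and at 4.93% of all promoter peaks. It was present at 2 of the 33 candidates, hars-1 and mars-1, whose sequences are given above, against 3.15% of all promoter candidates. The mars-1 candidate had a signal of 88.0 and lay 998 bp upstream of mars-1 and 163 bp upstream of the divergent gene F58B3.6, to which it was nearer. The E-box itself lay outside the promoter window of mars-1. The element TGATGCAA, bound by the ATF4 family in amino acid starvation in mammals, was at 0 of 9 peaks and 0 of 33 candidates, against 0.647% and 0.566% of all. Over whole promoter windows from the most upstream start, the core was present at 26 of 32 synthetase genes (81.2%) and 82.1% of all genes. The E-box was at 12.5% and 18.4%, and TGATGCAA at 3.12%, in iars-1, and 5.13%. A missing match says only that these letters are not in the window searched.

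Other genes of protein synthesis were counted in the same way. Cytosolic ribosomal protein genes, which encode the protein part of the ribosome, had a peak at 63 of 78 (80.8%, 70.3% to 88.8%), an interval entirely above that of the synthetase genes. Their peaks had a median strongest signal of 244, close to the 230 of the synthetase genes, with rpl-3 (1257), rpl-15 (914) and rps-23 (733) at the top. Translation factor genes had one at 20 of 43 (46.5%, 31.2% to 62.3%), led by eef-1A.2 (678), iff-2 (605) and eef-1A.1 (475), which encode elongation factors or, for iff-2, the eIF5A factor. Mitochondrial ribosomal protein genes had one at 17 of 70 (24.3%, 14.8% to 36.0%), led by mrpl-18 (369). The intervals of these last lists overlap that of the synthetase genes.

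The lists of genes around tRNA and the sensing of its charging were small. Of 17 genes listed under tRNA processing and modification, 6 had a peak (35.3%, 14.2% to 61.7%). The highest were mtcu-2 (276), which modifies mitochondrial tRNA, nsun-1 (264), an RNA methyltransferase gene, and rtcb-1 (240), the RNA ligase of tRNA splicing. Of 6 genes listed around the sensing of uncharged tRNA and eIF2 phosphorylation, 4 had one (66.7%, 22.3% to 95.7%). They included pek-1 (339), an eIF2 kinase that responds to stress of the endoplasmic reticulum, abcf-3 (201), a partner of GCN-1, and the transcription factor gene atf-4 (135). Candidate regions or peaks lay at 91.0% of cytosolic ribosomal protein genes, 79.1% of translation factor genes and 61.4% of mitochondrial ribosomal protein genes. They lay at 52.9% of the tRNA processing list and at all 6 charging sensor genes (100%, 54.1% to 100%), beside the 81.2% of the synthetase genes.

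**Figure D4:**
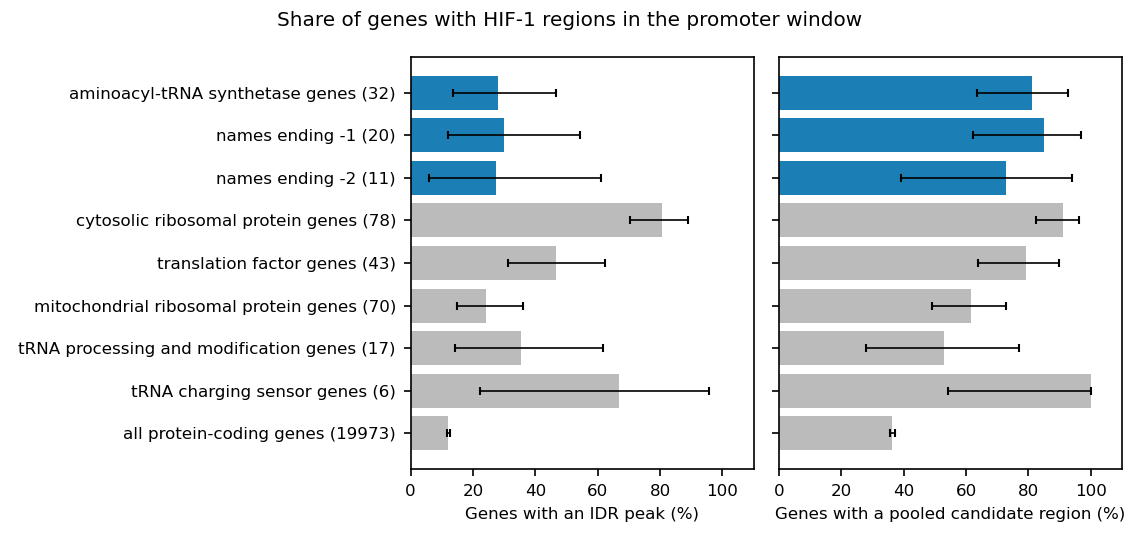
Share of genes with an IDR peak (left, percent) and with a pooled candidate region or peak (right, percent) in the promoter window, for the synthetase genes (blue) and other lists (grey), with list sizes in parentheses and exact 95% intervals as lines. The synthetase genes stand at 28.1% and 81.2%, against 12.2% and 36.4% of all protein-coding genes.

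Peaks in or near synthetase genes were also counted, whether or not they lay in a promoter window. An IDR summit lay within 5000 bp of 15 of the 32 genes, including the 9 with a promoter peak. This share was 46.9% (29.1% to 65.3%), against 32.8% of all genes, so the interval holds the background. Of the 23 genes without a promoter peak, 6 had such a summit (26.1%, 10.2% to 48.4%), close to the 23.6% of all genes without one. At fars-1 it lay inside the gene with a signal of 202, in the promoter window of mrpl-23, a mitochondrial ribosomal protein gene. The others were iars-1 (135), sars-2 (117), iars-2 (113), sars-1 (106) and fars-2 (100), all outside the gene, and all but that of fars-2 in the window of another gene.

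Across 9 ways of calling a promoter peak, 3 genes, cars-1, kars-1 and yars-2, had one in every case and 20 genes in none. Of these ways, leaving out peaks near tRNA genes could change no synthetase gene, because none of their peaks was within 250 bp of one. The genes ears-2, mars-1, nars-1 and aars-2 had one in 8, aars-1 in 6 and rars-1 in 5. The rars-1 peak was lost with a window of 500 bp, among the stronger part of the IDR list, without replicate 2 and without peaks of another gene's window. The genes gars-1 and tars-1 had one only without replicate 2, and iars-2 only with a window of 2000 bp.

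**Figure D5:**
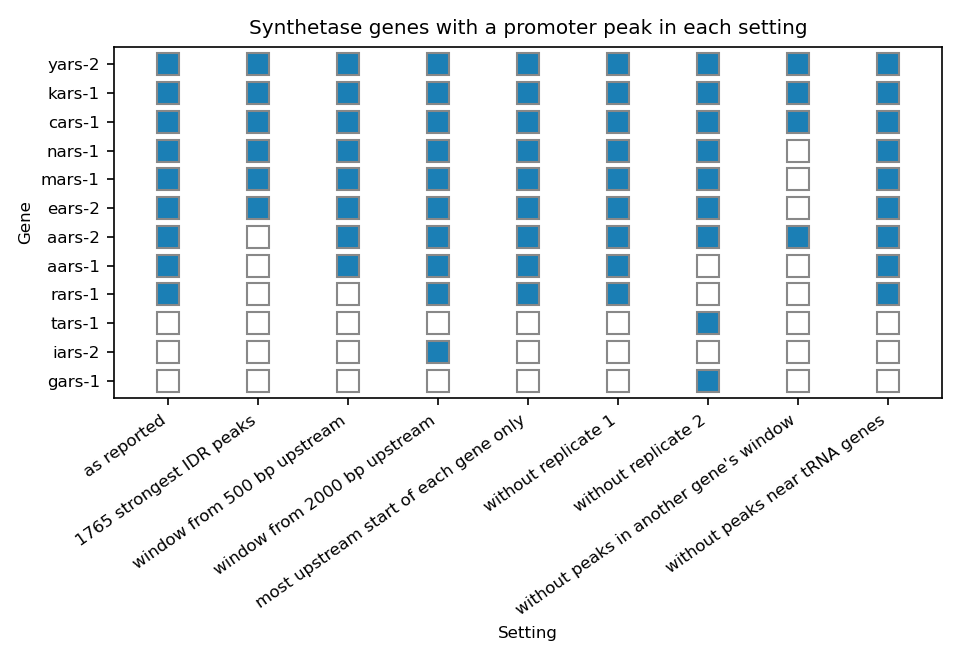
Filled squares mark a promoter peak of the 12 synthetase genes (rows) that had one in at least 1 of 9 settings (columns), and open squares none. The 3 genes filled in every column are cars-1, kars-1 and yars-2, and the column with the fewest filled squares leaves out peaks in another gene's window.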

How the data were processed

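HIF-1 ChIP-seq lists of 2 biological replicates of 1 group were used. Each region's signal is a value deposited by the authors. Per the file lists deposited with the samples, regions were called against a control alignment for each replicate and for both pooled, and an optimal IDR-thresholded list of 3531 peaks was derived. No aligner or peak caller is named in the sources used here. The lists hold no read counts, so the depth is unknown, and signals were used only within a list.

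Positions are those of the ce11 lists and were joined to Ensembl release 115 (WBcel235), with 29784 transcript starts of protein-coding genes and 612 tRNA genes. RefSeq products gave compartments. The ce10 lists were not used here. Shares have exact Clopper-Pearson intervals (scipy 1.17.1) and the difference of shares a Newcombe interval (statsmodels 0.14.6). Genes that share a promoter are not independent. The counting code was tested on simulated data. Every member is named, and of each other list the genes with the 3 highest signals. In the list of tRNA charging sensors, 1 name matched no gene. Members, lists and settings were chosen with earlier results of these data known. Alternatives were other windows, starts, peak numbers, single replicates, distances and the removal of shared peaks.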

Additional observations from a re-analysis of the deposited data

How the results depend on the processing

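Of the 32 synthetase genes, 9 had a peak as reported (12.2% of all genes). Without peaks in another gene's window 4 had one (2 -1 names), against 6.50% of all genes. The stronger part of the IDR list gave 6 (7.10% of all genes), and a window of 500 bp gave 8 (9.61%). A window of 2000 bp gave 10 (15.6%). The most upstream start gave 9 (11.2%), and leaving out peaks near tRNA genes also 9 (11.9%), as none of the 9 was near one. Each replicate alone gave 9, against 12.5% of all genes without replicate 1 and 11.6% without replicate 2. The share at -1 minus -2 names turned from 2.73 points to -2.27 with a window of 500 bp, -6.36 with one of 2000 bp and -8.18 without shared peaks, and stayed at 2.73 with either replicate left out. The median signal of 230 became 78.1 without replicate 2 and 131 without replicate 1, on the replicate lists' own scales. The core was at 2 of 11 peaks with a window of 2000 bp, at 3 of 9 within 100 bp, and at 1 to 2 peaks with a replicate left out. The window of 500 bp lost rars-1, that of 2000 bp added iars-2, and within 100 bp the cores near ears-2 and aars-1 were added. Beyond these changes of members, the cause of the shifts was not tested. The count of peaks found in both replicates, 8, was 6 within 50 bp or among the 3531 strongest regions of each replicate. With summits within 200 bp that count was 9. Genes with a candidate numbered 20 with a window of 500 bp (30.4% of all genes), 28 with 2000 bp (42.8%) and 24 from the most upstream start (33.9%). Leaving out peaks not found in both replicates, chosen after seeing the data, left 8 of the 9 genes. No paired analysis was possible because there was 1 group. Depth is unknown, and a control library was not analysed here.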
